A study of Mus musculus with 6 samples.

Results

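The genes described here remodel the extracellular matrix: matrix metalloproteinases (Mmp), their tissue inhibitors (Timp), the ADAM and ADAMTS metalloproteases, and the lysyl oxidases (Lox and Loxl). They were taken by symbol from a table of read counts per gene, which gave 83 of its 52459 rows (1 further row that matches the symbols was left out by rule). The samples were mouse liver tumours whose genotype was MYC-LAP-tTA: a transactivator driven by a liver promoter controls a MYC transgene, so that MYC is switched in the liver cells that use this promoter and not in the other cells of the tumour. In 3 samples the treatment was MYC activation (MYC_On), and in 3 it was MYC inactivation, taken on day 4 (MYC_Off). All 6 samples carried the same genotype, were labelled as tumour from liver, and came as total RNA from flash-frozen tissue. How MYC was inactivated and whether samples came from separate animals are not stated in the labels, so each p-value reflects variation among these 6 libraries, part of which could be technical.

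Metalloproteinases of the MMP family cut collagens, laminins, elastin and other matrix proteins. They are made as inactive precursors, and TIMPs block them by binding the zinc site. ADAMs are mostly membrane proteins, several of which cut receptors and growth factors off the cell surface, whereas ADAMTS enzymes are secreted and process procollagens, proteoglycans and von Willebrand factor. Lysyl oxidases do the opposite work, joining collagen and elastin chains through oxidised lysines. In injured liver these enzymes come from macrophages, neutrophils, stellate cells and endothelial cells as well as from hepatocytes, and they take part both in laying down scar and in clearing it.

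Several secreted MMP genes lie side by side on mouse chromosome 9, in the order Mmp13, Mmp12, Mmp1b, Mmp3, Mmp1a, Mmp10, Mmp27, Mmp20 and Mmp7. The 110 bases just before the RefSeq start of 6 of them are shown because these neighbours differed widely in reads in the same libraries. Sequences are from RefSeq on GRCm38.p6, plus strand, written 5′ to 3′. Capitals mark the letters TGANTCA, the consensus bound by AP-1, a transcription factor pair of the Fos and Jun families. For Mmp12 the second of the RefSeq starts is used and for Mmp7 the first. The window before the other start of each held no match.
Mmp13 (chr9:7272404-7272513): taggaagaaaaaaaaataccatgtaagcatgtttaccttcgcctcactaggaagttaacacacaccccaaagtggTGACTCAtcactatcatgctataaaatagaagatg
Mmp12 (chr9:7347264-7347373): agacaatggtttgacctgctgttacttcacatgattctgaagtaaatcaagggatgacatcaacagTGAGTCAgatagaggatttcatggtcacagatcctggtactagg
Mmp3 (chr9:7445712-7445821): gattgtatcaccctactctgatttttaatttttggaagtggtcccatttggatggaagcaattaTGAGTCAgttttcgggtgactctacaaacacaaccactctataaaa
Mmp10 (chr9:7502232-7502341): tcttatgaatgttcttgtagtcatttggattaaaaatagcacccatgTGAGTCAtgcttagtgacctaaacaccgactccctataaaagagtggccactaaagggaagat
Mmp27 (chr9:7571286-7571395): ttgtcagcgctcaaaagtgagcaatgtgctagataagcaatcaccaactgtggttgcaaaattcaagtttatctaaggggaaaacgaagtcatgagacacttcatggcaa
Mmp7 (chr9:7691980-7692089): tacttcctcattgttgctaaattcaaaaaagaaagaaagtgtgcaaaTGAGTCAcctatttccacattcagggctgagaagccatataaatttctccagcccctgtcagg

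The first base of the match lay at -35 in Mmp13, -44 in Mmp12, -46 in Mmp3, -63 in Mmp10 and -63 in Mmp7, counted back from the start. With 250 bases searched before each start, the letters TGANTCA (the same on both strands) were found in 2217 of 32851 RefSeq promoter windows, or 6.75%. Among the genes of the chromosome 9 cluster 8 of 9 had a match, Mmp27 being the exception, and outside the cluster 4 of the 40 members with a window had one. CACGTG, the E-box that MYC can bind, was present in 6.02% of all windows and in a window of 5 of the 49 members with one, namely Adam10, Adam19, Adam6a, Adamts17 and the second start of Mmp7. A match is a run of letters and was not tested as a binding site.

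Libraries held 16292718 to 19265623 reads, and 1 read was worth 0.0409 to 0.0768 CPM (reads scaled by library size and TMM factor, used throughout). The row of Myc stood at 779, 1018 and 854 CPM in MYC_On and at 74.8, 10.2 and 18.7 CPM in MYC_Off, in the order of replicates 1 to 3. Its log2 fold change was -4.67, with SE 0.80 and an adjusted p of 0.0035. Counts per gene symbol do not tell reads of the transgene from those of the mouse gene. Each adjusted p comes from the quasi-likelihood test in edgeR, adjusted by Benjamini and Hochberg's method over all 14130 genes tested. A positive log2 fold change means higher in MYC_Off. MYC_Off replicate 1 had the most T, NK and B cell marker RNA of the 6 libraries, and MYC_Off replicate 3 had 0 reads of the Kupffer cell gene Clec4f against 4024 and 3549 in the other MYC_Off libraries, and 8 reads of the stellate cell gene Lrat against 778 and 553. In bulk tissue, fewer cells of a type and less RNA per cell cannot be told apart.

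Members of every class were higher with MYC inactivated, and no tested member was called lower. Of the 83 members 42 had enough reads to be tested (10 reads in a library of median size, or 0.549 CPM before TMM scaling, in at least 3 libraries). MYC_Off was higher in 33 of these, lower in 0, and 9 did not pass. Without adjustment, at p under 0.05, the counts were again 33 and 0, and DESeq2 and limma-voom called 33 and 31 higher and 0 lower. Over all genes tested 52.7% passed, 29.9% higher and 22.8% lower. The median log2 fold change was 2.51 for the tested members and 0.18 for all tested genes. Every MYC_Off library lay above every MYC_On library in 33 tested members, and below in 0. Over all genes tested these shares were 33.2% and 29.8%. The filter itself favours genes that are high in 1 group: 10 members reached its cutoff through the MYC_Off libraries alone. Among the 29 members that reached the cutoff in all 6 libraries 23 were higher and 0 lower, beside 27.6% higher and 23.9% lower of the 11767 genes that did so.

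**Figure D1:**
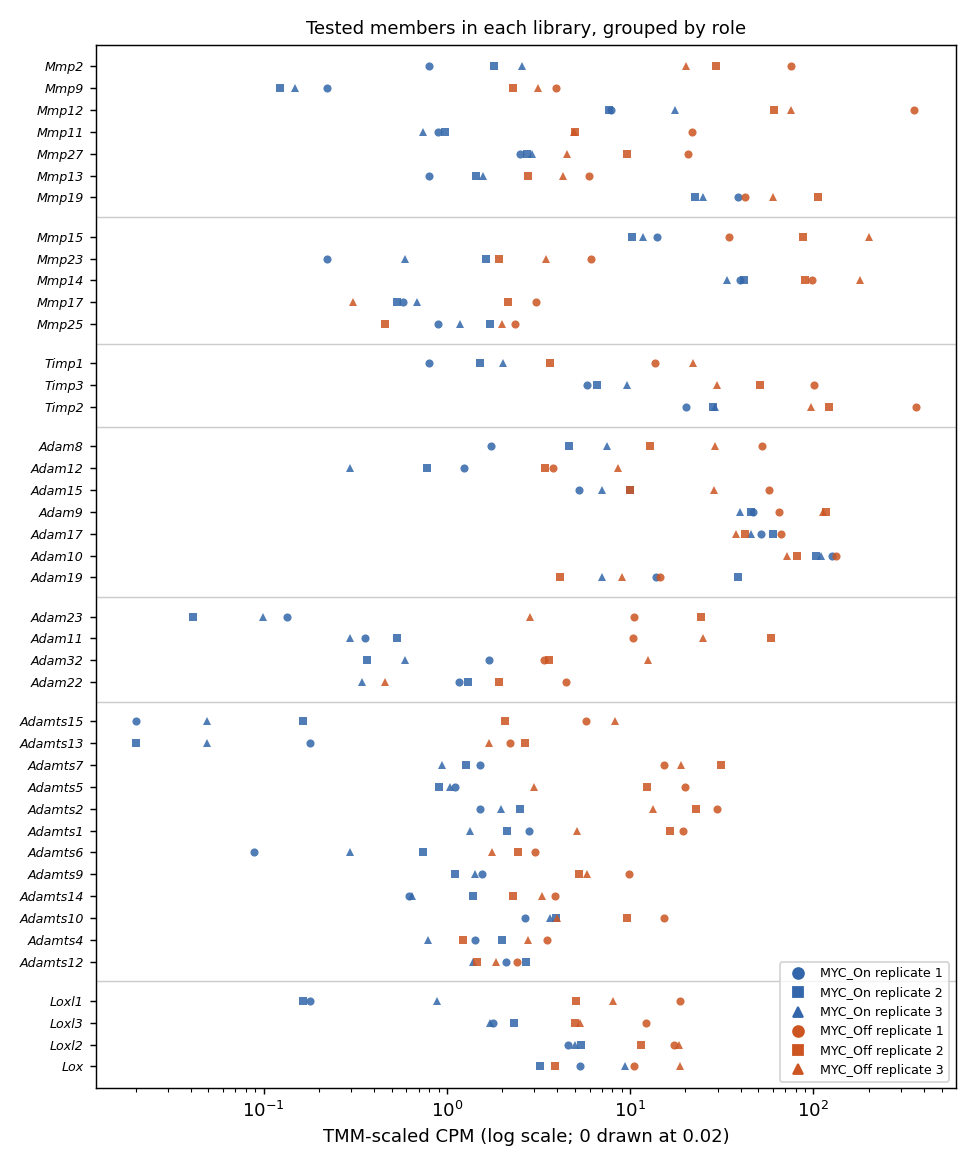
Each row is a tested member and each symbol a library (circle, square and triangle for replicates 1, 2 and 3), with TMM-scaled CPM on a log axis and lines between roles. In 33 of the 42 rows the MYC_Off symbols lie wholly to the right of the MYC_On symbols, and Adam10, Adam17 and Adam19 are among the rows where the groups overlap.

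All members together took 0.0535%, 0.0578% and 0.0486% of reads in MYC_On and 0.177%, 0.0730% and 0.0792% in MYC_Off. Replicate 1 was the highest MYC_Off library for 20 of the 33 called members, replicate 2 for 6 and replicate 3 for 7. The matching split over all genes called higher is not given here, so it is not shown to be particular to the members. Without replicate 1 of MYC_Off 28 members were higher and 1 lower, without replicate 2 there were 30 higher, and without replicate 3 there were 32. Without each MYC_On library in turn 25, 24 and 22 were higher. All 33 kept a positive log2 fold change in each of the 17 alternatives tried, and 19 passed in each of them. Scaling changed the count: by library size only, 21 members were higher and 0 lower, while the median of all genes went to -0.56 and 32.3% of called genes were higher in place of 56.7%.

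The secreted MMPs rose in all 7 genes that could be tested, of 15 in the class, with a median log2 fold change of 3.59. Over all tested genes 29.9% were higher and the median was 0.18. Among the 7, Mmp9 reached the filter's cutoff through the MYC_Off libraries alone. The gelatinases, which cut denatured collagen and the type IV collagen of basement membrane, showed the steepest changes. Mmp2 (chromosome 8, 92827291 to 92853420, mm10) stood at 0.802, 1.80 and 2.56 CPM in MYC_On and at 75.7, 29.5 and 20.3 CPM in MYC_Off. The groups were far apart, with replicate 1 the highest in MYC_Off. The means were 1.72 ± 0.884 and 41.8 ± 29.7 CPM (as wherever ± is written, SD with n = 3). In log2 the change was 4.60 (SE 0.67, adjusted p = 0.002). Mmp9 (chromosome 2, 164940780 to 164955850) was rare throughout. It had 5, 3 and 3 reads in MYC_On and 72, 30 and 41 reads in MYC_Off, or 0.164 ± 0.052 and 3.13 ± 0.83 CPM, and its log2 fold change was 4.20 (SE 0.54, adjusted p = 0.0014).

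Mmp12, the elastase of macrophages (chromosome 9, 7344381 to 7369499), had a mean of 22.6 CPM per kb of exon in MYC_Off, beside 19.7 for Mmp19, a gap smaller than its spread. Its CPM were 7.84, 7.65 and 17.6 in MYC_On and 354, 60.6 and 75.9 in MYC_Off, and the mean went from 11.0 ± 5.69 to 164 ± 165 CPM. Replicate 1 of MYC_Off stood far above the other libraries. The log2 fold change of 3.89 (SE 0.79, adjusted p = 0.0064) became 2.48 without that library and still passed. Mmp11, also called stromelysin 3, behaved alike, with 21.8 CPM in replicate 1 and 4.97 and 4.92 CPM in replicates 2 and 3 of MYC_Off, against 0.891, 0.982 and 0.740 CPM in MYC_On. Its log2 fold change was 3.59 (SE 0.72, adjusted p = 0.006) and 2.35 without that library.

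The other 3 secreted MMPs passed with smaller changes, and each lost its call when certain single libraries were left out. Mmp13, a collagenase of mouse, rose from 1.27 ± 0.413 to 4.35 ± 1.62 CPM, or 1.77 in log2 (SE 0.50, adjusted p = 0.022). It no longer passed when any 1 MYC_On library (adjusted p 0.067 to 0.11) or MYC_Off replicate 1 (0.057) was left out, while the log2 fold change stayed between 1.32 and 1.95 whichever of the 6 libraries was left out. Mmp27 rose from 2.72 ± 0.209 to 11.6 ± 8.3 CPM, with MYC_Off values of 20.8, 9.64 and 4.53 CPM. Its log2 fold change was 2.10 (SE 0.57, adjusted p = 0.018), 1.24 without MYC_Off replicate 1, and it did not pass without any 1 MYC_On library (adjusted p 0.066 to 0.071). Mmp19, which was already expressed in MYC_On, stood at 38.8, 22.7 and 25.1 CPM there and at 42.6, 106 and 60.1 CPM in MYC_Off. The groups nearly touched, and the log2 fold change of 1.27 (SE 0.39, adjusted p = 0.029) did not pass without MYC_On replicate 2 (1.07, adjusted p = 0.12), MYC_On replicate 3 (1.12, 0.11) or MYC_Off replicate 2 (0.74, 0.095).

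The neighbours on chromosome 9 were uneven. Mmp7, matrilysin, an enzyme of glandular epithelium and its tumours, had 2, 0 and 1 reads in MYC_On and 472, 6 and 0 reads in MYC_Off, so that replicate 1 held nearly all of them. It failed the filter and was not tested. The ratio of scaled reads over the groups was 242 (exact 95% interval 82.2 to 1180, counting error only), and this ratio describes that library rather than the group. Mmp3, stromelysin 1, had 0 reads in MYC_On and 6, 1 and 6 in MYC_Off. With a floor of 3 reads put on MYC_On the ratio of scaled reads was 6.57. The exact 95% interval of the ratio starts at 4.62 (counting error only). Mmp1a, Mmp1b and Mmp10 had 0 reads in all 6 libraries, and a count of 0 allows up to 3 reads over a group. Mmp20 had 7 reads in total. Matches to TGANTCA were present before the starts of genes with no reads (Mmp1a, Mmp1b, Mmp10) as well as before Mmp12 and Mmp13, and Mmp27, with none in its window, rose. Whether a match bears on the reads of its gene was not tested. Reads of Mmp12 could be shared with Mmp1b over 157 bases of exon, and those of Mmp7 with an antisense transcript.

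**Figure D2:**
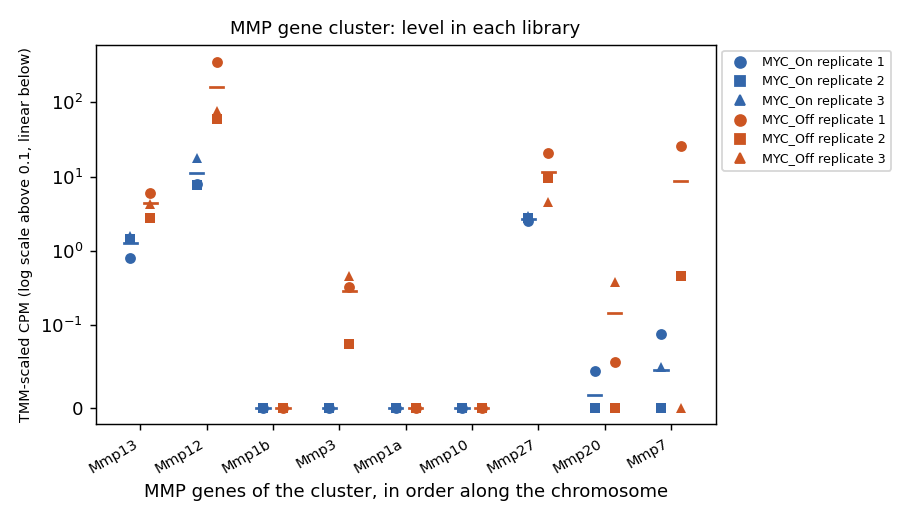
MMP genes of the chromosome 9 cluster in their order along the chromosome, with TMM-scaled CPM on a log axis that is linear below 0.1, 1 symbol per library and a bar at each group's mean. Mmp12, Mmp13 and Mmp27 were measured in all 6 libraries, Mmp7 mainly in MYC_Off replicate 1, and Mmp1a, Mmp1b and Mmp10 lie at 0.

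The remaining secreted MMPs were at the edge of detection, with 3 reads in all of Mmp21 and 11 reads in MYC_On against 39 in MYC_Off of Mmp28, 32 of them in MYC_Off replicate 1. Neither was tested.

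Membrane-type MMPs act at the cell surface, and Mmp14 there activates the Mmp2 precursor together with Timp2. Mmp14 (chromosome 14, 54431612 to 54445364) was the most abundant MMP with MYC active apart from Mmp19, on the scale of CPM per kb of exon. It stood at 39.9, 41.7 and 33.9 CPM in MYC_On and at 98.2, 89.8 and 179 CPM in MYC_Off, with means of 38.5 ± 4.06 and 122 ± 49.2 CPM and a log2 change of 1.67 (SE 0.31, adjusted p = 0.0047). Mmp15 (chromosome 8, 95352268 to 95375080), another membrane-type collagenase, had 13.9, 10.2 and 11.8 CPM in MYC_On and 34.7, 87.6 and 200 CPM in MYC_Off. Its order among the MYC_Off libraries was the reverse of that of Mmp2, replicate 3 being highest and replicate 1 lowest. The means were 12 ± 1.86 and 107 ± 84.4 CPM, with a log2 change of 3.16, SE 0.61 and an adjusted p of 0.0052.

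Mmp23 was just inside the threshold, with 0.223, 1.64 and 0.592 CPM in MYC_On and 6.10, 1.91 and 3.46 CPM in MYC_Off (log2 fold change 2.21, SE 0.80, adjusted p = 0.0497). It reached the filter's cutoff through the MYC_Off libraries alone. Leaving out MYC_On replicate 2 kept the call, and leaving out any other single library lost it (adjusted p 0.051 to 0.17). Mmp17 did not pass: its MYC_On values were 0.579, 0.532 and 0.690 CPM and its MYC_Off values 3.08, 2.14 and 0.307 CPM (log2 fold change 1.62, 95% interval -0.18 to 3.42, adjusted p = 0.11). Without replicate 3 of MYC_Off, the lowest of the 6 libraries, the log2 fold change was 2.04 (adjusted p = 0.014). Mmp25, an enzyme of neutrophils, gave 0.35 (interval -1.17 to 1.88, adjusted p = 0.68), beside neutrophil markers of which 9 of 9 tested rose. Mmp16 and Mmp24 had 5 reads and 1 read in total.

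The 3 TIMPs that could be tested rose by 2.91 to 3.18 in log2 and passed in all 17 alternatives. Over all tested genes 29.9% were higher. Timp2 (chromosome 11, 118301069 to 118355740), which both inhibits MMPs and helps Mmp14 to activate Mmp2, had the highest mean of all members in MYC_Off per kb of exon, with replicate 1 at 93.6 CPM per kb and replicates 2 and 3 at 31.1 and 24.9. It stood at 20.1, 28.4 and 28.9 CPM in MYC_On and at 365, 121 and 96.9 CPM in MYC_Off, or 25.8 ± 4.93 and 194 ± 148 CPM. Replicate 1 of MYC_Off was again the highest. The log2 fold change was 2.91 (SE 0.54, adjusted p = 0.0046), and 1.93 without that library.

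Timp3, which is bound to the matrix and also inhibits Adam17 and aggrecanases (chromosome 10, 86300372 to 86349506), had 5.83, 6.63 and 9.57 CPM in MYC_On and 101, 51.3 and 29.6 CPM in MYC_Off. The means were 7.34 ± 1.97 and 60.6 ± 36.5 CPM, and the log2 fold change was 3.05 (SE 0.48, adjusted p = 0.0027). Its exons share 1733 bases with Syn3 on the other strand, so its reads are uncertain in part. Timp1, a secreted inhibitor that rises in liver injury (X chromosome, 20870166 to 20874735), had 0.802, 1.51 and 2.02 CPM in MYC_On and 13.7, 3.67 and 22.0 CPM in MYC_Off. Unlike Timp2 and Timp3 its highest MYC_Off library was replicate 3. The log2 fold change was 3.18 (SE 0.71, adjusted p = 0.0092). Timp4 had 2, 1 and 0 reads in MYC_On and 4, 12 and 8 reads in MYC_Off, too few for the test. Its ratio of scaled reads was 12.1 (exact 95% interval 3.68 to 62.9, counting error only).

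Inhibitors and proteases both moved up, and their ratio within a library, which no scaling between libraries can alter, did not separate the groups. Summed over all members and per kb of exon, MMP members stood at 23.9, 20.2 and 21.1 CPM per kb in MYC_On and at 155, 88.2 and 109 CPM per kb in MYC_Off. TIMPs stood at 6.80, 9.81 and 10.9 against 121, 41.7 and 53.4 CPM per kb. The ratio of TIMPs to MMPs was 0.284, 0.485 and 0.516 in MYC_On and 0.782, 0.473 and 0.489 in MYC_Off. Both outer values were replicates 1, and the other 4 libraries lay between 0.473 and 0.516. Left out of the MMP sum, Mmp12 changed the MYC_Off ratio of replicate 1 to 1.14 and those of the other 2 to 0.523 and 0.541, again overlapping MYC_On (0.298, 0.512 and 0.583). These sums and ratios, and the shares below, also depend on the annotated exon length taken for each gene. RNA levels do not measure active enzyme.

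The makeup of each sum shifted between libraries. Timp2 made up 76.0%, 74.2% and 68.3% of TIMP RNA per kb in MYC_On and 77.1%, 74.6% and 46.5% in MYC_Off. Mmp14 made up 28.0%, 34.6% and 27.0% of MMP RNA in MYC_On and 10.6%, 17.1% and 27.5% in MYC_Off. Mmp12 made up 4.53%, 5.23% and 11.5% in MYC_On against 31.5%, 9.5% and 9.6% in MYC_Off. The ranges of the 2 groups overlapped for each of these shares.

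**Figure D3:**
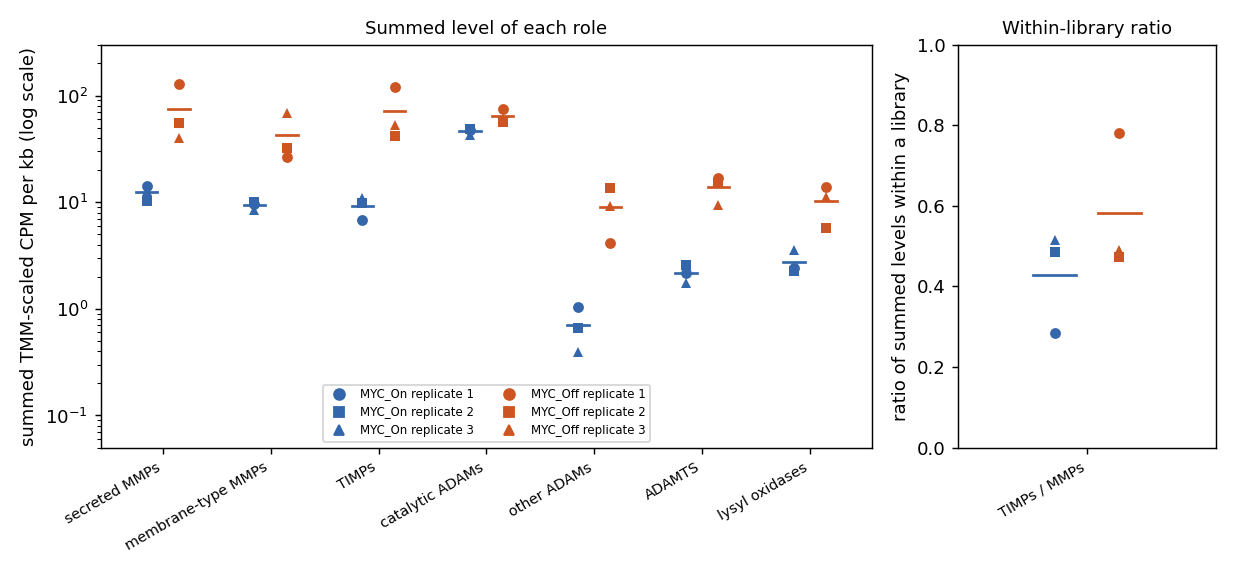
Left, TMM-scaled CPM per kb of exon summed over the members of each role (log axis), 1 symbol per library and a bar at the group mean. Right, the ratio of the TIMP sum to the MMP sum within each library on an axis from 0: apart from replicates 1 at 0.284 and 0.782, the libraries of both groups lie from 0.473 to 0.516.

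ADAMs with a working zinc site included 4 that rose, while the main sheddases Adam10 and Adam17 did not pass. Of 9 members 7 were tested, 4 were higher and 0 lower. The share called was 57.1%, beside 52.7% over all tested genes, of which 29.9% were higher and 22.8% lower. Among the 4, Adam12 reached the filter's cutoff through the MYC_Off libraries alone. Adam9 (chromosome 8, 24949611 to 25016927), a sheddase with many substrates, stood at 46.9, 45.6 and 39.8 CPM in MYC_On and at 65.0, 117 and 113 CPM in MYC_Off (log2 fold change 1.16, SE 0.27, adjusted p = 0.011). The groups did not overlap, but the call was lost without MYC_On replicate 2 (adjusted p = 0.0501) or replicate 3 (0.058).

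Adam8, found on myeloid cells, had 1.74, 4.67 and 7.45 CPM in MYC_On and 52.7, 12.9 and 28.9 CPM in MYC_Off, a log2 change of 2.77 (SE 0.68, adjusted p = 0.012, or 0.057 without MYC_On replicate 2). Adam12, an ADAM of activated stellate cells and fibroblasts, had 1.25, 0.778 and 0.296 CPM in MYC_On and 3.79, 3.44 and 8.60 CPM in MYC_Off (2.75, SE 0.67, adjusted p = 0.013, or 0.061 without MYC_On replicate 2). Adam15, an ADAM that also binds integrins, had 5.26, 9.95 and 7 CPM in MYC_On and 57.5, 10.03 and 28.8 CPM in MYC_Off. Its MYC_Off replicate 2 barely exceeded MYC_On replicate 2. The log2 fold change of 2.12 (SE 0.61, adjusted p = 0.023) failed the threshold without any 1 MYC_On library (adjusted p 0.058 to 0.084) and without MYC_Off replicate 1 (1.24, 0.067). Adam15 also shares 1263 bases of exon with an antisense transcript.

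Adam10 (chromosome 9, 70678997 to 70780229), the sheddase that cuts Notch receptors, had the highest level per kb of all tested members in MYC_On. It stood at 127, 103 and 110 CPM in MYC_On and at 133, 81.4 and 72.0 CPM in MYC_Off. The groups overlapped and the log2 fold change was -0.25 (95% interval -0.91 to 0.41, adjusted p = 0.49). Without MYC_Off replicate 1, the highest of the 6, it was -0.71 and passed as lower (adjusted p = 0.025). Adam17 (chromosome 12, 21323509 to 21373632), which releases TNF and ligands of the EGF receptor, had 51.9, 59.9 and 45.9 CPM against 66.8, 42.1 and 37.7 CPM, a log2 change of -0.10 (interval -0.75 to 0.54, adjusted p = 0.77). These intervals leave out a rise of the size seen in Adam9, and do not show that either level was unaltered.

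Adam19 had 13.9, 38.9 and 7.05 CPM in MYC_On and 14.6, 4.13 and 8.99 CPM in MYC_Off, with a log2 change of -1.11 (interval -2.74 to 0.52, adjusted p = 0.21). Its spread in MYC_On was wider than the difference between the groups, and without MYC_On replicate 2 the log2 fold change was -0.23. The ratio of Adam9 to Adam10 per kb was 0.442, 0.531 and 0.432 in MYC_On and 0.585, 1.71 and 1.88 in MYC_Off, with no overlap and no dependence on scaling. The smallest p that an exact permutation test of 3 against 3 libraries can give is 0.10, and these ratios were not tested. The ratio of Adam10 to Adam17, at 3.55, 2.50 and 3.49 against 2.89, 2.81 and 2.78, overlapped. The untested members were Adam33, with 9 reads in MYC_On and 49 in MYC_Off, and Adam28, with 4 reads in total.

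**Figure D4:**
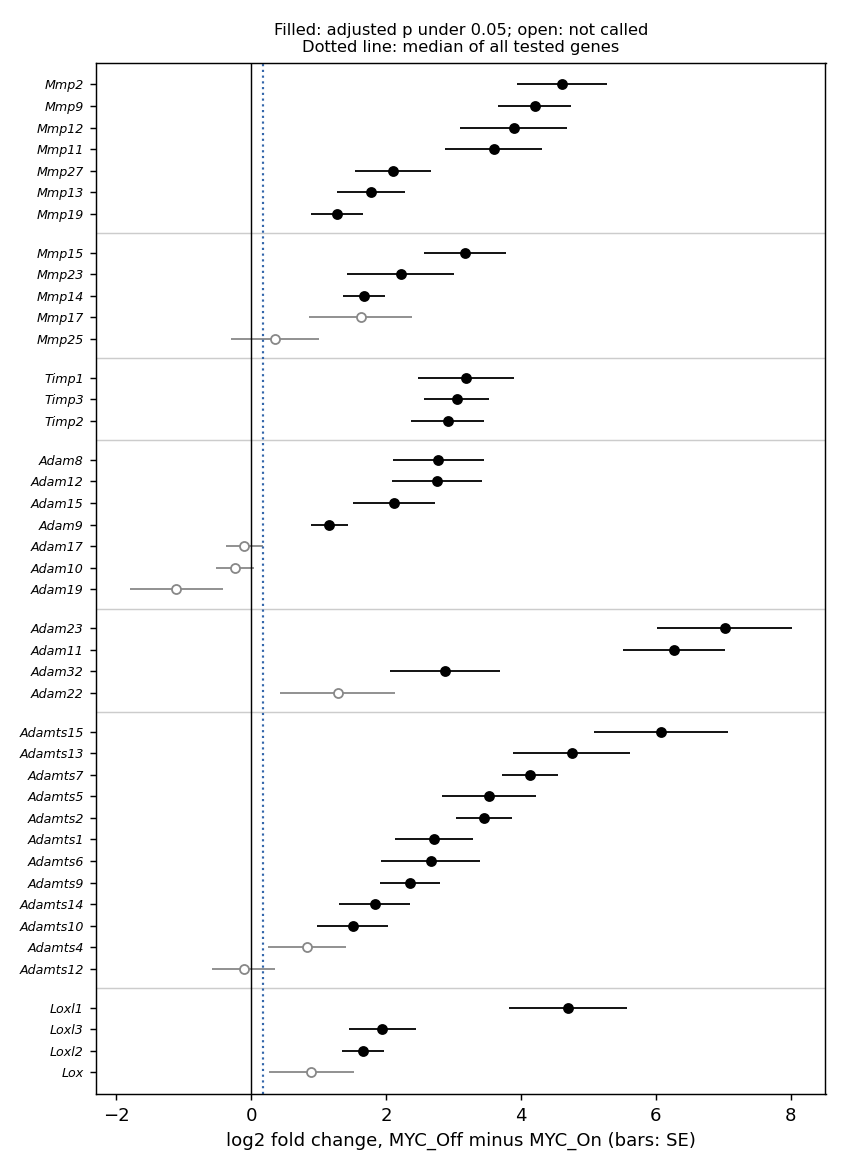
Log2 fold change, MYC_Off minus MYC_On, of each tested member with its SE as bars, lines between roles, filled where the adjusted p was under 0.05 and open where it was not. The dotted line is the median of all tested genes, 0.18, and the open symbols at or below 0 are Adam10, Adam17, Adam19 and Adamts12.

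The ADAMs that lack a zinc site or belong to reproductive tissue were mostly undetected: 14 of 24 had 0 reads. Of the 4 tested, 3 rose, beside 29.9% higher over all tested genes. These 3 reached the filter's cutoff through the MYC_Off libraries alone, so the filter favoured this count. Adam11 (chromosome 11, 102761439 to 102780262) and Adam23 (chromosome 1, 63445891 to 63596276) have no protease activity and are best known as neuronal surface proteins. Adam11 had 0.356, 0.532 and 0.296 CPM in MYC_On and 10.4, 58.4 and 25.0 CPM in MYC_Off, a log2 change of 6.27 (SE 0.76, adjusted p = 0.0012). Adam23 had 3, 1 and 2 reads in MYC_On and 192, 317 and 37 reads in MYC_Off, or 10.5, 24.3 and 2.84 CPM in the latter, and its fitted log2 fold change of 7.02 (SE 1.00, adjusted p = 0.0019) was the largest of all tested members. In both genes replicate 2 of MYC_Off was the highest library, unlike most of the secreted MMPs.

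Adam32, a testis gene, had 1.69, 0.368 and 0.592 CPM in MYC_On and 3.41, 3.60 and 12.5 CPM in MYC_Off (2.87, SE 0.81, adjusted p = 0.022). It was not called without MYC_On replicate 2 (adjusted p = 0.082), MYC_On replicate 3 (0.087) or MYC_Off replicate 3 (1.89, 0.060). Adam22, a relative of Adam23, gave 1.28 (95% interval -0.72 to 3.28, adjusted p = 0.24), and 0.19 without MYC_Off replicate 1. Of the members not tested, Adam7 had 10, 6 and 0 reads in MYC_On and 1 read in MYC_Off, a ratio of scaled reads of 10.5 in favour of MYC_On (exact 95% interval 1.64 to 442, counting error only). Adam1a had 28 and 13 reads over the 2 groups, Adam4 had 22 and 22, Adam5 had 3 and 13, and Adam1b and Adam21 had 4 each in total.

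ADAMTS genes were low in MYC_On, none above a mean of 3.42 CPM, and 10 of the 12 tested rose, of 19 in the class. Over all tested genes 29.9% were higher. Of the 10, 3 (Adamts6, Adamts13 and Adamts15) reached the filter's cutoff through the MYC_Off libraries alone, so the filter favoured this count. The procollagen N-proteinases, which trim the front end of fibrillar collagens, gave calls for Adamts2 and Adamts14. Adamts2 (chromosome 11, 50602084 to 50807573) had 1.51, 2.50 and 1.97 CPM in MYC_On and 29.8, 22.7 and 13.4 CPM in MYC_Off, with means of 1.99 ± 0.492 and 22 ± 8.24 CPM (3.46 in log2, SE 0.41, adjusted p = 0.0011). Adamts14, which does the same work, rose from 0.885 ± 0.438 to 3.17 ± 0.811 CPM (1.83, SE 0.52, adjusted p = 0.022). The call on Adamts14 was lost without MYC_On replicate 1 (adjusted p = 0.12), MYC_On replicate 3 (0.11) or MYC_Off replicate 1 (0.052). Adamts3, the last of that trio, had 1 read in MYC_On and 12 in MYC_Off, a ratio of 18.2 (exact 95% interval 2.69 to 778, counting error only).

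Among the proteoglycan-cutting enzymes Adamts1, Adamts5, Adamts9 and Adamts15 rose, and Adamts4 did not pass. Adamts5 (chromosome 16, 85856173 to 85901828) had 1.11, 0.9 and 1.04 CPM in MYC_On and 19.9, 12.3 and 3.00 CPM in MYC_Off, a log2 change of 3.52 (SE 0.70, adjusted p = 0.0059). Its neighbour Adamts1 (chromosome 16, 85793827 to 85803113) followed the same order of libraries in MYC_Off, with 2.81, 2.13 and 1.33 CPM in MYC_On and 19.5, 16.5 and 5.15 CPM in MYC_Off (2.71, SE 0.58, adjusted p = 0.0077). Adamts9 went from 1.36 ± 0.234 to 7 ± 2.52 CPM (2.36, SE 0.45, adjusted p = 0.0048). Adamts15 had 0, 4 and 1 reads in MYC_On and 105, 27 and 108 reads in MYC_Off, with a fitted log2 fold change of 6.07 (SE 1.00, adjusted p = 0.003) that rests on those 5 reads. Adamts4 gave 0.83 (95% interval -0.52 to 2.18, adjusted p = 0.26), and 0.35 without MYC_Off replicate 1.

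Adamts7, which cuts cartilage oligomeric matrix protein and thrombospondin 1 (chromosome 9, 90163069 to 90208071), had the smallest adjusted p of all members. It stood at 1.51, 1.27 and 0.937 CPM in MYC_On and at 15.3, 31.1 and 19 CPM in MYC_Off. The log2 fold change was 4.13 (SE 0.42, adjusted p = 0.00088). Its close relative Adamts12 did not pass, with 2.06 ± 0.661 and 1.91 ± 0.485 CPM and a log2 change of -0.11 (95% interval -1.20 to 0.98, adjusted p = 0.86), which turned to 0.083 without MYC_On replicate 2.

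Adamts13, the protease of von Willebrand factor, which in liver is made by stellate cells (chromosome 2, 26973416 to 27009628), had 4, 0 and 1 reads in MYC_On and 40, 35 and 22 reads in MYC_Off. The level went from 0.0758 ± 0.092 to 2.19 ± 0.494 CPM (4.75, SE 0.87, adjusted p = 0.0044). Adamts6 and Adamts10, which are linked to fibrillin microfibrils, passed by less. Adamts6 gave 2.66 (SE 0.73, adjusted p = 0.019, lost without MYC_On replicate 1 at 0.066 or replicate 3 at 0.090). Adamts10 gave 1.5 (SE 0.53, adjusted p = 0.046). Leaving out MYC_Off replicate 3 kept that call, and leaving out any other single library lost it (adjusted p 0.10 to 0.16), with 0.85 without MYC_Off replicate 1. The other 6 untested ADAMTS members, Adamts8, Adamts16, Adamts17, Adamts18, Adamts19 and Adamts20, had 1 to 18 reads each over the 6 libraries.

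Lysyl oxidases rose in 3 of 4 tested genes, beside 29.9% higher over all tested genes, and Lox itself did not pass. One of the risers, Loxl1, reached the filter's cutoff through the MYC_Off libraries alone. Loxl1, the enzyme of elastic fibre formation (chromosome 9, 58287738 to 58313186), was almost absent with MYC active: 0.178, 0.164 and 0.888 CPM in MYC_On and 18.7, 5.05 and 8.07 CPM in MYC_Off. Its log2 fold change was 4.70 (SE 0.88, adjusted p = 0.0047), and it passed in all 17 alternatives. Loxl2, which crosslinks collagen in fibrotic liver (chromosome 14, 69609068 to 69695834), had the tightest MYC_Off replicates of the 4 tested lysyl oxidases. It stood at 4.59, 5.40 and 5.03 CPM in MYC_On and at 17.3, 11.5 and 18.5 CPM in MYC_Off, a rise from 5.01 ± 0.408 to 15.7 ± 3.75 CPM (1.65, SE 0.31, adjusted p = 0.0047). With library size only it was 0.94 and missed the threshold (adjusted p = 0.083).

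Loxl3 rose from 1.95 ± 0.336 to 7.49 ± 4.08 CPM (1.94, SE 0.49, adjusted p = 0.014). Its log2 fold change was 1.25 without MYC_Off replicate 1, the call was lost without MYC_On replicate 1 (0.066) or replicate 3 (0.065), and 535 bases of its exons overlap Htra2. Lox (chromosome 18, 52516067 to 52529867) had 5.30, 3.23 and 9.32 CPM in MYC_On and 10.4, 3.90 and 18.7 CPM in MYC_Off. The groups overlapped, and the log2 fold change of 0.89 (95% interval -0.59 to 2.36, adjusted p = 0.27) allows both no change and a rise as large as that of Loxl2. Loxl4 had 1, 2 and 2 reads in MYC_On and 12, 11 and 8 reads in MYC_Off and was not tested.

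By mean CPM per kb of exon, the 7 highest members with MYC active were Adam10 (23.0), Adam9 (10.7), Mmp19 (8.17), Adam17 (7.35), Timp2 (6.63), Mmp14 (6.46) and Adam19 (2.80). Of neighbours in that order Mmp19, Adam17, Timp2 and Mmp14 did not differ beyond their spread. With MYC inactivated the mean of Timp2 was 49.9, followed by Adam9 (23.9), Mmp12 (22.6), Mmp14 (20.5), Mmp15 (19.9), Mmp19 (19.7) and Adam10 (19.4). Without MYC_Off replicate 1 the means of Timp2 and Adam9 were 28.0 and 27.9, and in replicate 3 alone Mmp15 (37.0), Mmp14 (30) and Adam9 (27.5) exceeded Timp2. The spread of Mmp12 and of Mmp15 between MYC_Off libraries was larger than the gaps among the other 6, so the order of these 7 is not resolved. Levels per kb also depend on the length used, all annotated exons of a gene joined. That length was 7237 bases for Mmp12 against 2673 for its neighbour Mmp13, and the lengths of the transcripts present were not measured. Besides the overlaps given above, exons of Mmp19 share 1001 bases with genes on the other strand, of Adamts9 1805, of Adam19 1067 and of Adam17 311. Those of Loxl2 share 301 bases, of Adamts4 171, of Mmp11 155, of Adamts7 122, of Adam8 46 and of Lox 30. Part of the reads of these members could belong to the genes on the other strand.

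Genes that act with these enzymes were read from 5 lists. In the list of the plasmin system and MMP activation 12 of 18 tested genes were higher and 0 lower (0 also without adjustment), with a median log2 fold change of 2.32. Beside this and the counts of the other lists stand the 29.9% higher, 22.8% lower and median of 0.18 over all tested genes. Plg, the plasminogen made by hepatocytes, went from 176 ± 65.6 to 4337 ± 1901 CPM (4.62, SE 0.60, adjusted p = 0.0014), and the broad protease inhibitor Pzp from 61.0 ± 35.7 to 5717 ± 3408 CPM (6.55, SE 0.88, adjusted p = 0.0016). Plaur, Furin and Reck were among the 6 that did not pass. Matrix proteins that the enzymes cut or crosslink were higher in 25 of 29 tested and lower in 1, with a median of 2.80. Vwf, the substrate of Adamts13, went from 0.329 ± 0.104 to 16.8 ± 3.05 CPM (5.65, SE 0.42, adjusted p = 0.0008) and Fbn1, fibrillin 1, from 3.57 ± 0.729 to 25.2 ± 3.54 CPM (2.81, SE 0.29, adjusted p = 0.0009). Lamc1, a laminin chain, fell from 267 ± 49.99 to 75.5 ± 20.01 CPM (-1.82, SE 0.30, adjusted p = 0.003).

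Collagen processing and crosslinking enzymes outside the lysyl oxidases were higher in 8 of 20 and lower in 1, with a median of 1.13, the share of all tested genes being 29.9% higher and 22.8% lower. Bmp1, the procollagen C-proteinase that also activates Lox, rose from 9.99 ± 3.89 to 99.9 ± 37.0 CPM (3.32, SE 0.45, adjusted p = 0.0016), and Plod1, a lysyl hydroxylase, from 31.4 ± 6.02 to 116 ± 25.3 CPM (1.89, SE 0.26, adjusted p = 0.0017). Papln, papilin, an ADAMTS-like matrix protein, fell from 17.5 ± 6.31 to 3.01 ± 1.92 CPM (-2.54, SE 0.53, adjusted p = 0.0073). The number lower was 2 without MYC_Off replicate 1 or replicate 3, and 3 with library size only.

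Partners of the sheddases and the proteins they release moved in both directions: 11 of 23 were higher and 3 lower (median 1.16). Tspan33, a tetraspanin that associates with Adam10, rose from 2.17 ± 0.600 to 20.1 ± 4.78 CPM (3.21, SE 0.36, adjusted p = 0.00098), and Tnfrsf1a, a TNF receptor that is shed, from 42.9 ± 5.04 to 186 ± 45.0 CPM (2.11, SE 0.26, adjusted p = 0.0012). Those lower were the Adam10 partner Tspan15 (-0.80, adjusted p = 0.030), the Adam10 substrate Notch1 (-0.81, adjusted p = 0.026) and the Adam17 substrate Hbegf (-1.17, adjusted p = 0.018). Tspan15 was lost without MYC_On replicate 1, MYC_On replicate 3 or MYC_Off replicate 2, Notch1 without MYC_On replicate 1, MYC_On replicate 2 or MYC_Off replicate 2, and Hbegf without any 1 MYC_On library. The number higher was 6 with library size only, and 6 or 7 without any 1 MYC_On library or without MYC_Off replicate 1.

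AP-1, TGF-beta and inflammatory genes that are known to induce MMPs and TIMPs were higher in 14 of 23 and lower in 2, with a median of 1.36. Tgfbr2 rose from 25.4 ± 3.23 to 155 ± 52.7 CPM (2.61, SE 0.32, adjusted p = 0.0012) and Il6st, the shared receptor chain of the IL-6 family, from 38.9 ± 3.14 to 215 ± 78.0 CPM (2.46, SE 0.33, adjusted p = 0.0015). The TGF-beta signal carriers Smad4 (-1.05, adjusted p = 0.0045) and Smad3 (-0.96, adjusted p = 0.026) fell, the latter not without MYC_On replicate 1 or replicate 2. Of the AP-1 genes Fosl2 (1.61, SE 0.44, adjusted p = 0.019) and Junb (1.36, SE 0.37, adjusted p = 0.018) were higher, Fos, Fosb, Jun and Jund did not pass, and Fosl1 was not tested. Fosl2 was lost without MYC_On replicate 1 (adjusted p = 0.076), MYC_On replicate 3 (0.067) or MYC_Off replicate 1 (0.99 in log2, 0.052). Junb was lost without any 1 MYC_On library, MYC_Off replicate 1 or MYC_Off replicate 3 (adjusted p 0.051 to 0.074). With library size only 8 genes of this list were higher, and 9 were without MYC_On replicate 1 or replicate 3.

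Summed marker RNA of the cell types known to make these enzymes rose in the same comparison. Markers of macrophages and Kupffer cells summed to 538 to 1059 CPM in MYC_On and 1904 to 7562 CPM in MYC_Off, with 10 of 12 tested higher. Neutrophil markers summed to 2.46 to 3.70 CPM and 168 to 275 CPM (9 of 9), stellate cell and fibroblast markers to 148 to 197 CPM and 941 to 2832 CPM (11 of 12), and endothelial markers to 60.9 to 67.6 CPM and 333 to 698 CPM (8 of 9). In each of these lists the sums of the groups did not overlap, and none of their markers was called lower. Single markers did not all follow the sums. In MYC_Off replicate 3 Timd4 (12.9 CPM), Marco (0.0768), Clec4f (0) and the endothelial marker Clec4g (0.0768) lay below all MYC_On libraries. The stellate markers Lrat (0.614 CPM) and Reln (0.307) there lay within the MYC_On range, and most of the stellate sum of that library was Col1a1 (429 CPM) and Col3a1 (237). The markers Col1a1, Col3a1, Dcn, Lum and Vwf were also counted among the matrix proteins above, so those 2 counts are not separate. Acta2 in MYC_Off replicate 2 (5.74 CPM) lay below MYC_On. Hepatocyte markers summed to between 2849 and 6197 CPM in MYC_On and between 77424 and 239339 CPM in MYC_Off (7 of 8).

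Other lists depended on the library. T and NK cell markers were 229, 27.5 and 6.99 CPM in MYC_Off and 3.65 to 5.77 CPM in MYC_On, with 6 of 8 higher. B and plasma cell markers stood at 183, 17.4 and 1.54 CPM against 1.80 to 3.01 CPM, with 1 of 2 higher. Cholangiocyte markers were 44.2 to 105 CPM in MYC_On and 86.7 to 259 CPM in MYC_Off, with 2 of 5 higher and 1 lower, and mesothelial markers 0.802 to 10.1 and 0 to 65.0 CPM with 0 of 4 called by edgeR (0 also without adjustment). MYC_Off replicate 1 was the highest library in every sum except those of hepatocytes and neutrophils. It was the highest MYC_Off library for 20 of the 33 called members, including Mmp2, Mmp12, Timp2 and Timp3. Replicates 2 and 3 were highest for 6 and 7 of them, Mmp14 and Timp1 being among those of replicate 3. The matching split over all genes called higher is not given, so this split is not shown to be particular to the members. Replicate 3 had the highest hepatocyte sum, most of it Alb (203650 CPM), and the most Mmp15, whereas Hnf4a, Cps1, Asgr1, Tat and G6pc were highest in replicate 2. The part of cell makeup in the members' changes was not tested.

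**Figure D5:**
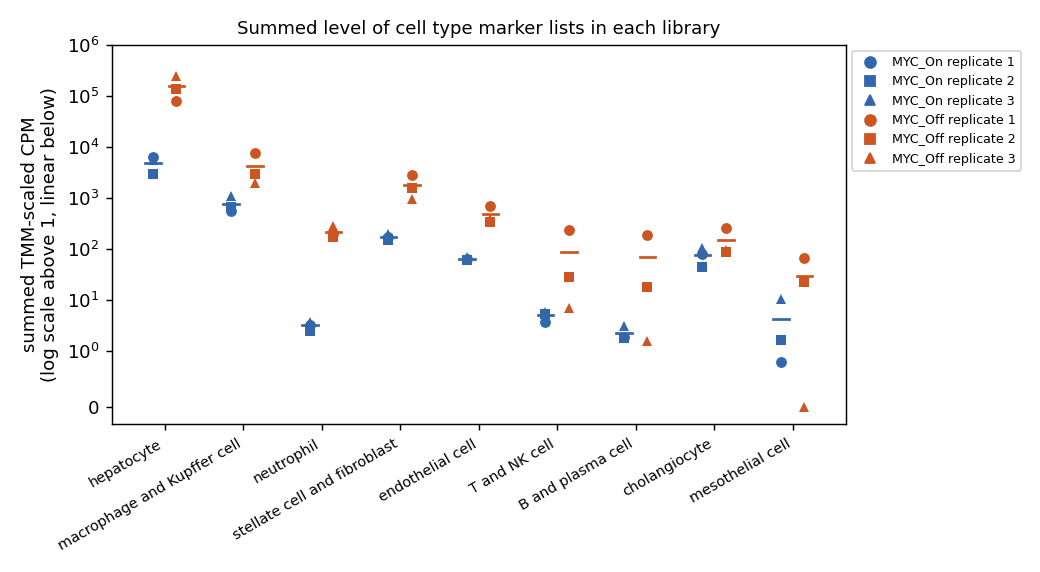
Summed TMM-scaled CPM of each list of cell type markers (log axis, linear below 1), 1 symbol per library and a bar at the group mean. Hepatocyte, macrophage, neutrophil, stellate, endothelial and T and NK cell lists lie wholly higher in MYC_Off, the last narrowly. B cell, cholangiocyte and mesothelial lists overlap.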

How the data were processed

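RNA was sequenced from 6 mouse liver tumour samples. The authors deposited whole-number read counts per gene symbol, not normalized. Per the submitters' processing notes Trimmomatic, STAR, Picard, featureCounts and DESeq2 were used with mm10; the sources used here do not give versions, annotation, strand setting or the handling of multiply mapped reads, so overlapping and near-identical genes are uncertain. In 26 rows the symbol had become a date.

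Groups came from the sample titles. All 52459 rows went into R 4.3.3 with edgeR 4.0.16. Rows passed filterByExpr at a count of 10 and a total of 15, were scaled by TMM and were tested by a robust quasi-likelihood fit, at a Benjamini-Hochberg threshold of 0.05. The script was tested on simulated data. SE was derived from the fold change and F, with intervals at 95%. Lengths are GENCODE M21 exon unions, which held all 83 members. Libraries of a group differed by more than sampling noise (chi-square of 29.1 or more per degree of freedom).

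The members are symbols starting Mmp, Timp, Adam or Adamts with a number, plus Lox and Loxl1 to Loxl4, with 1 matching row left out. Members, lists and tests were chosen with earlier results of these data known. Named were all TIMPs and lysyl oxidases, every member past the threshold, tested members whose higher mean was 5 CPM or more, and of each list the 2 smallest adjusted p per direction, or all where 5 or fewer passed. Other names (Mmp17, Mmp25, Adam22, Adamts4, Adamts12, untested members, Fosl2, Junb, list genes without values, single markers) were chosen after their values were seen. Alternatives were other scalings, filters, tools (DESeq2 1.42.0, limma 3.58.1 voom), thresholds, a replicate block and leaving out each library. Figures used matplotlib 3.10.9.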

Additional observations from a re-analysis of the deposited data

How the results depend on the processing

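Of the 33 members higher in MYC_Off 19 passed in all 17 alternatives and 13 lost the call when some single library was left out. No member changed sign except 2 that had not passed: Mmp25, at -0.31 with library size only and between -0.19 and 0.72 with 1 library left out, and Adamts12, between -0.46 and 0.083 with 1 library left out. The count of members higher was 21 with library size only, 20 at an adjusted p of 0.01, 22 against a minimum change of 2-fold, 27 with library sizes computed without the 20 most abundant genes, and 29 to 33 with the remaining scalings, filters and tools. Leaving out each library gave 22 to 32 higher and 0 to 1 lower. Same-numbered libraries correlated at -0.26, -0.17 and 0.040 in their deviations from the group means, and unlike-numbered ones at -0.12 to 0.32. Deviations within a group of 3 sum to 0, so these correlations cannot show whether the numbers pair the samples. A replicate block gave 26 higher and 0 lower. With 3 libraries a group and 1 read worth up to 0.0768 CPM, differences in the 41 untested members were mostly not detectable at this depth.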
